A study of Mus musculus with 24 samples.

Results

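MicroRNA (miRNA) levels in the subcutaneous white fat of mice were compared between 3 weeks and 1 week of high-fat feeding. The comparison took the count columns labelled high-fat at week 3, replicates 1 to 4, against those labelled high-fat at week 1, replicates 1 to 4, which is 8 of the 24 libraries of the study. The other 16 libraries were from control-fed mice at the 3 time points (day 1, week 1 and week 3) and from mice after 1 day of high-fat feeding, 4 in each group. The 4 control libraries at week 1 and the 4 at week 3 served to set the same time step on the control diet beside that on the high-fat diet. Strain, sex, age, the makeup of the diets and any pooling of mice are not given in the sources at hand. All 1907 mature miRNA names of the count table were considered, and 558 passed the filter on low counts.

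A miRNA is cut from a hairpin precursor, first by Drosha in the nucleus and then by DICER in the cytoplasm, which leaves a 5p and a 3p arm. One arm, or both, guides the silencing complex to messenger RNAs, mainly through pairing of bases 2 to 8, the seed, so miRNAs with the same seed are expected to share targets. Fat tissue holds adipocytes together with endothelium, pericytes, fibroblasts and leukocytes, and several miRNAs are known to belong mostly to 1 of these cell types. The title of the study concerns lower DICER in adipose tissue on a high-fat diet.

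The mature sequences of the miRNAs on which the comparison turns are given from RefSeq (build GRCm38.p6), 5′ to 3′, with the seed in capitals. The first set holds the members of the Dlk1-Dio3 cluster with the smallest p, followed by its most abundant members.
miR-369-3p: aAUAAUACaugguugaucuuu
miR-154-5p: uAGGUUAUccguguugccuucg
miR-541-3p: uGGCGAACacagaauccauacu
miR-369-5p: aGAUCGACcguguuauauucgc
miR-494-3p: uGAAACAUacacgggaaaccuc
miR-379-5p: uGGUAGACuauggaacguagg
miR-381-3p: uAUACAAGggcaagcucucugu
miR-411-5p: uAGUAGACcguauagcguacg
These 8 arms have 8 different seeds. The next set holds miRNAs with a small p that were higher at week 3.
miR-1198-5p: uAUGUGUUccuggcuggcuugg
miR-374c-5p: aUAAUACAaccugcuaagug
let-7g-5p: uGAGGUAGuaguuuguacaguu
The last set holds marker miRNAs of other cell types, first leukocytes and then epithelium, and the miR-25 and miR-92a pair. The miR-200b, miR-200c and miR-429 sequences share the seed AAUACUG, and miR-25 and miR-92a share AUUGCAC.
miR-142a-3p: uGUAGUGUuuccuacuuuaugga
miR-142a-5p: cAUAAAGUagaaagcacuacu
miR-146a-5p: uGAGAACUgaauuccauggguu
miR-200b-3p: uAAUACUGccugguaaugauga
miR-200c-3p: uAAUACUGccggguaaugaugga
miR-429-3p: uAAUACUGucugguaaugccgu
miR-203-3p: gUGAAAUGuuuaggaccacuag
miR-205-5p: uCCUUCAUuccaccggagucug
miR-25-3p: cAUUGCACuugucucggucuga
miR-92a-3p: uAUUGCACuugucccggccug

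The high-fat week 1 libraries held 3.56 ± 0.760 M counts (SD, n = 4; M is mega-counts) and the week 3 libraries 5.88 ± 4.12 M, where replicate 3 was the deepest. Mean log10 totals differed by 0.160, with p = 0.314 in an exact two-sided permutation test whose smallest possible p is 0.0286. Levels are counts scaled to a library of 1 M (CPM) after TMM scaling, and differences are log2 fold changes with their SE, week 3 minus week 1. With library totals as the only scaling the median difference of all miRNAs moved from -0.02 to -0.13. The tissue's own markers were present in every library, with endothelial miR-126a-3p at 73186 CPM or more and adipocyte-enriched miR-148a-3p at 107548 CPM or more. Skeletal muscle markers summed to between 135 and 81000 CPM in the 8 libraries, the widest span of the 9 marker lists as a ratio of highest to lowest. Because these are bulk samples, fewer cells of a type and less of a miRNA per cell cannot be told apart.

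No miRNA passed the test between week 3 and week 1 on the high-fat diet. By edgeR's quasi-likelihood test, 0 of 558 miRNAs (0%) had a Benjamini-Hochberg adjusted p under 0.05, and the lowest adjusted p was 0.251. DESeq2 also called 0, with a lowest adjusted p of 0.0968, and so did limma-voom (library weights), with 0.0741. At an unadjusted p under 0.05, 27.9 miRNAs are expected by chance on average, and more or fewer can occur where miRNAs vary together. There were 80, with 58 lower at week 3 (10.4%) and 22 higher (3.94%). These numbers depended on the scaling and on single libraries: with library totals alone 77 were lower and 9 higher, and by limma-voom 74 and 44. With 1 library left out, the number higher was 44 without week 1 replicate 4, 42 without week 3 replicate 3 and 13 without week 1 replicate 1. The number lower was 30 without week 3 replicate 1, where the total was 47, and 37 without week 3 replicate 4. In 21 miRNAs (3.76%) all 4 week 3 libraries lay under all 4 week 1 libraries, and in 14 (2.51%) all lay over them. The 95% interval of the difference lay within a 2-fold change in either direction for 285 miRNAs (51.1%).

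Of the 58 miRNAs that were lower at the unadjusted threshold, 40 belonged to a single imprinted miRNA cluster, described next. The miRNA with the smallest p of all was higher at week 3. It was miR-1198-5p, in an intron of Gripap1 (chromosome X, 7807142 to 7807163). Its level was 26.6, 44.1, 34.6 and 48.3 CPM at week 1 and 82.3, 67.2, 55 and 83.2 CPM at week 3. Every week 3 library lay above every week 1 library, and the log2 difference was 0.91 ± 0.24 (unadjusted p = 0.000892, edgeR adjusted p = 0.251). On the control diet the same miRNA ranged from 43.8 to 67.8 CPM at week 1 and 45.2 to 82.8 CPM at week 3, with overlapping groups and a difference of 0.13 ± 0.23. The lowest 2 of these 16 libraries were high-fat week 1 replicates 1 and 3.

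The next by p among those higher at week 3 was miR-598-3p, at 15.1, 12.4, 18 and 28.8 CPM at week 1 and 35.3, 29.2, 28.4 and 28.5 CPM at week 3. The 4 week 3 libraries lay close together, and only week 1 replicate 4 reached into their range; the log2 difference was 0.73 ± 0.24. A tight pattern was also seen for miR-374c-5p, encoded in Ftx on the opposite strand from that gene (chromosome X, 103573086 to 103573105). It stood at 8.25, 8.96, 10.3 and 8.48 CPM at week 1 and 14.1, 13, 11.5 and 17.6 CPM at week 3. All week 3 values exceeded all week 1 values, with a log2 difference of 0.63 ± 0.22, although a mature miRNA on the opposite strand overlaps it and the strand setting of the counting is not given. Of the rest with a small p in this direction, miR-1947-5p differed by 0.70 ± 0.25, with overlap at week 3 replicate 3. The low-count miR-5104 had 1, 2, 0 and 0 counts at week 1 and 9, 6, 6 and 5 at week 3, too few for a fold change.

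Among abundant miRNAs, let-7g-5p of the let-7 family, which is best known for restraining growth and developmental genes, stood out by p. Its level was 24416, 24294, 26241 and 31293 CPM at week 1 and 36861, 33296, 29316 and 35159 CPM at week 3. Week 1 replicate 4 overlapped the week 3 values, and the difference was 0.34 ± 0.12 (unadjusted p = 0.0103, edgeR adjusted p = 0.251).

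**Figure D1:**
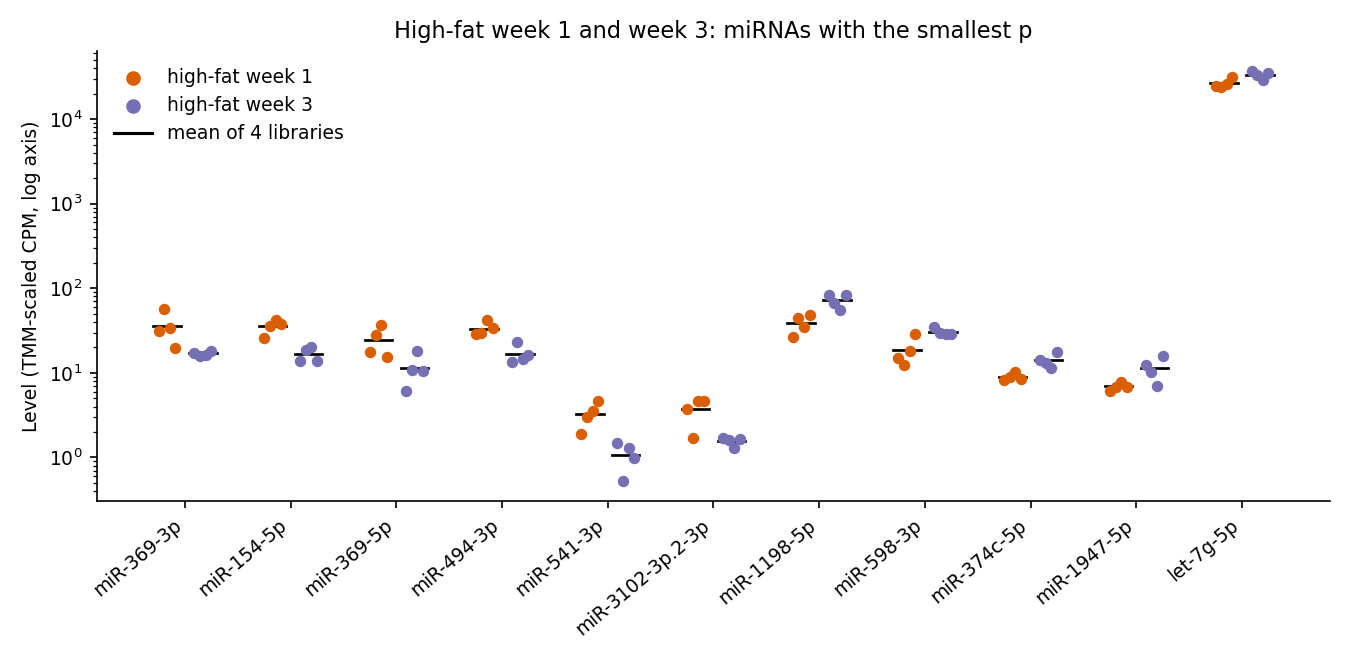
Levels in each library (TMM-scaled CPM on a log axis) of 11 of the 12 miRNAs with the smallest p, 6 in each direction, without the low-count miR-5104. Orange points are the 4 high-fat week 1 libraries, violet points the 4 week 3 libraries and lines their means. For miR-369-3p, miR-154-5p, miR-494-3p, miR-541-3p, miR-3102-3p.2-3p, miR-1198-5p and miR-374c-5p the groups do not overlap.

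The clearest pattern by position was in the Dlk1-Dio3 region, an imprinted domain on chromosome 12. There the maternal chromosome expresses the noncoding RNAs Meg3, Rian and Mirg, and with them one of the largest miRNA clusters of the mouse genome, which is most active in embryo, placenta, brain and muscle. Of the 109 arms of the list in the table, 73 passed the filter. At week 3 of the high-fat diet 72 of these 73 had a lower fitted level than at week 1, with a median log2 difference of -0.76, while over all 558 miRNAs 289 were lower and the median was -0.02. None passed the adjusted threshold. At an unadjusted p under 0.05, 40 of 73 members were lower and 0 higher, beside 10.4% and 3.94% of all miRNAs. The groups did not overlap for 17 members, all lower, beside 3.76% of all miRNAs. Among the 485 tested miRNAs outside the cluster, 217 were lower and the median was 0.05. A difference of more than 1 log2 unit was seen in 18 members.

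The member with the smallest p was miR-369-3p (chromosome 12, 109743466 to 109743486, intron of Mirg). Its level was 31.6, 56.5, 33.5 and 19.9 CPM at week 1 and 17.3, 15.9, 16.3 and 18.2 CPM at week 3. The week 3 libraries lay within a narrow band below the lowest week 1 library, and the log2 difference was -1.07 ± 0.29 (unadjusted p = 0.00106, edgeR adjusted p = 0.251). Control libraries ranged from 14.1 to 28.8 CPM at week 1 and 15.5 to 23.4 CPM at week 3, which overlaps the high-fat week 3 values.

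The other arm of that hairpin, miR-369-5p, stood at 17.7, 27.7, 37 and 15.3 CPM at week 1 and 6.09, 10.9, 18 and 10.6 CPM at week 3. Week 3 replicate 3 lay above week 1 replicates 1 and 4, and the difference was -1.08 ± 0.33. Upstream in the same host transcript (chromosome 12, 109738438 to 109738459), miR-154-5p stood at 26.2, 35.8, 42.7 and 37.7 CPM at week 1 and 13.6, 18.8, 20.1 and 13.9 CPM at week 3. Its groups did not overlap, and the difference was -1.09 ± 0.32. For miR-494-3p (chromosome 12, 109715367 to 109715388) the levels were 28.8, 29.2, 41.6 and 33.9 CPM at week 1 and 13.4, 23.1, 14.4 and 16.2 CPM at week 3, again without overlap, with a difference of -0.99 ± 0.31. A further member without overlap, the low-abundance miR-541-3p, stood at 1.89, 2.99, 3.54 and 4.66 CPM at week 1 and 1.46, 0.531, 1.3 and 0.994 CPM at week 3, and its difference was -1.50 ± 0.44.

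The 3 most abundant members showed smaller differences than these. Levels of miR-379-5p, whose hairpin opens the downstream block, were 1449, 1295, 2978 and 1851 CPM at week 1 and 1927, 1474, 1025 and 1651 CPM at week 3. They overlapped widely, with a difference of -0.32 ± 0.32 (unadjusted p = 0.329, edgeR adjusted p = 0.642). Its neighbour miR-411-5p stood at 769, 964, 1593 and 895 CPM at week 1 and 555, 729.8, 689.7 and 636 CPM at week 3. All week 3 libraries were below all week 1 libraries, with a difference of -0.69 ± 0.30 (unadjusted p = 0.0298, edgeR adjusted p = 0.326). For miR-381-3p the difference was -0.44 ± 0.45, with overlapping groups. Within the cluster abundance made little difference to the sign: 37 of 37 members at or above the list's median level of 17.9 CPM were lower, and 35 of 36 below it. The members belong to 1 cluster and were measured in the same libraries. Counts of them, here and by position below, are therefore not independent observations.

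Along the chromosome the 70 members with a single RefSeq position spanned 180 kb, from 109563744 to 109743784. Of the 25 arms upstream of miR-379, 10 lie opposite to exons of Rtl1, 3 in introns of Rian and 9 between annotated genes. All 25 were lower, with a median of -0.80, 11 of them at an unadjusted p under 0.05, beside 10.4% of all miRNAs. Of the 45 arms from miR-379 onward, 18 of them in Mirg, 44 were lower, with a median of -0.72, 26 of them at that threshold and 13 without overlap, the latter beside 3.76% of all miRNAs. The exception was miR-758-3p at 0.09 ± 0.64, a low-count arm named here because it is the only one. An opposite-strand miRNA overlapped 8 of the 70 arms; without these 61 of 62 were lower. From the upstream block, miR-127-3p, which lies antisense to Rtl1 and is named here after its values were seen, stood at 821, 697, 371 and 629.8 CPM at week 1 and 195, 202, 559 and 242 CPM at week 3. Week 3 replicate 3 lay among the week 1 values, and the difference was -1.07 ± 0.51.

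**Figure D2:**
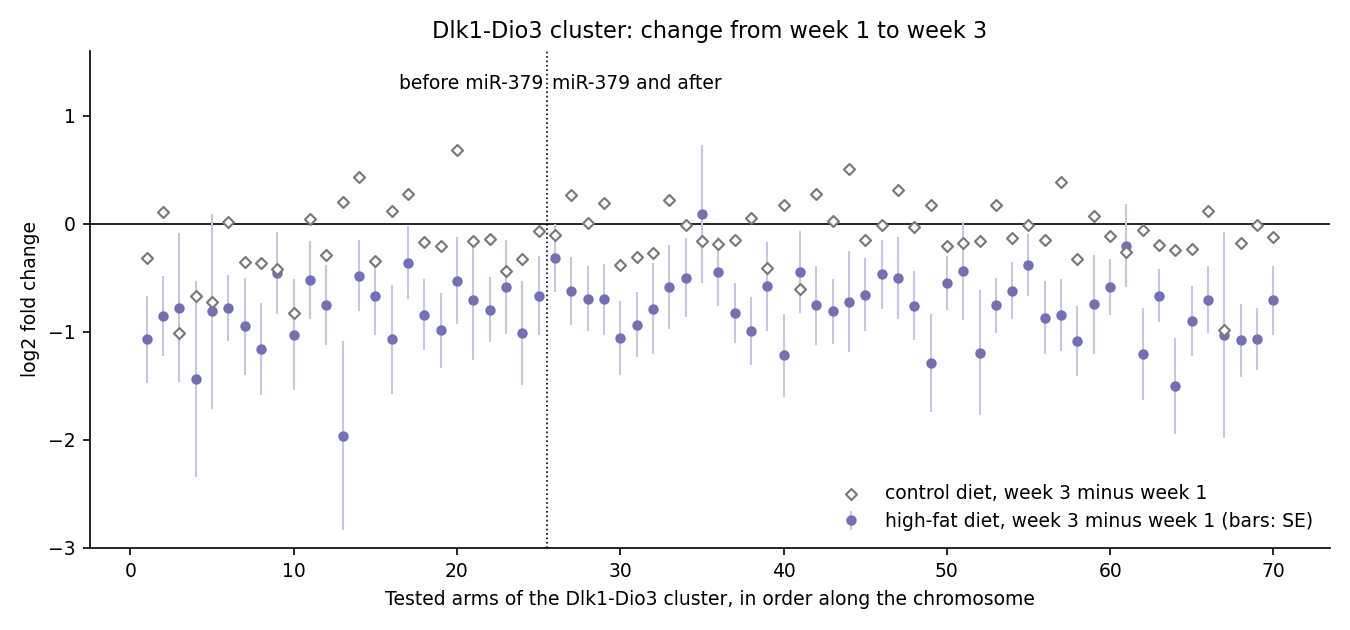
Log2 fold change, week 3 minus week 1, of the 70 Dlk1-Dio3 arms with 1 RefSeq position, in their order along chromosome 12, for the high-fat diet (violet, bars are the SE) and the control diet (open diamonds). On the high-fat diet 69 of the 70 points lie below 0 and they do so on either side of the dotted line that marks miR-379, whereas the control points lie on both sides of 0.

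By library, the summed level of the cluster was 7868, 11098, 11896 and 7288 CPM at week 1 and 6845, 6049.5, 5683 and 7404 CPM at week 3. Replicates 2 and 3 of week 1 were the highest, and week 1 replicate 4 lay below week 3 replicate 4. The week 3 libraries were the tighter group, with a mean log2 level of the members of 4.0 ± 0.10 (SD, n = 4), against 4.68 ± 0.46 at week 1. The corresponding level was 4.27 ± 0.28 after 1 day of high-fat feeding. Control-fed mice had 4.43 ± 0.27 at day 1, 4.09 ± 0.59 at week 1 and 4.06 ± 0.37 at week 3. The high-fat week 1 group thus had the highest mean of the 6, with a spread that reaches into the others.

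Week 1 replicates 2 and 3, the highest in the cluster, also had the highest skeletal muscle markers of the 4 week 1 libraries, at 81000 and 12772 CPM summed against 1200 and 135 CPM. The week 3 libraries did not follow that order throughout. Week 3 replicate 4 had 17381 CPM of these markers, more than week 1 replicate 3, but 7404 CPM of the cluster against 11896 CPM. Week 3 replicate 3 had more of the markers than week 3 replicates 1 and 2 but the lowest cluster level, 5683 CPM. With week 1 replicates 2 and 3 left out, a choice made after seeing the data, 59 members were lower and the cluster median was -0.33. Then 3 members were lower at an unadjusted p under 0.05. Over all 581 miRNAs tested in that setting 26 were lower at that threshold. Leaving out 1 library changed the number of members at that threshold. It was 18 without week 1 replicate 2, 26 without week 1 replicate 3 and 23 without week 3 replicate 1. In these settings 41, 44 and 30 of all miRNAs were lower. The number of members was 28 to 43 without each of the others, where 37 to 62 of all miRNAs were lower. Leaving out week 1 replicates 1 and 3 together gave 72 lower members with a median of -0.77, 23 of them at that threshold. Of all 582 miRNAs tested in that setting 32 were lower at that threshold. With the mean muscle marker level as a covariate in the fit, 45 members were lower at that threshold, beside 60 of all 558 miRNAs. Whether muscle tissue has a part in the difference was not tested further.

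Leukocyte markers pointed the other way, but with overlapping groups for most members. Of 12 markers 8 were higher at week 3 and 4 lower, with a median of 0.71, and none passed the adjusted threshold. Only 1 of the 12 was higher at an unadjusted p under 0.05 (3.94% of all miRNAs) and 2 were lower (10.4% of all miRNAs). Their summed level was 6853, 22353, 6544 and 18152 CPM at week 1 and 29045, 29397, 14662 and 28584 CPM at week 3. Week 1 was split, with replicates 1 and 3 low and replicates 2 and 4 above the lowest week 3 library. After 1 day of high-fat feeding the 4 libraries lay between 24331 and 52570.4 CPM. Without week 1 replicates 1 and 3, left out after seeing the data, 8 of 12 markers were higher with a median of 0.24.

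The most abundant leukocyte marker was miR-142a, made in nearly all blood cell lineages. Its 5p arm stood at 1023, 6362, 1173 and 5742 CPM at week 1 and 10027, 9577, 3536 and 8768 CPM at week 3. The groups overlapped, and the difference was 1.16 ± 0.72 (unadjusted p = 0.124, edgeR adjusted p = 0.46). The 3p arm (chromosome 11, 87756903 to 87756925) differed by 0.98 ± 0.60 and also overlapped. Levels of miR-146a-5p, which restrains Toll-like receptor signalling, differed by 0.60 ± 0.41, with week 3 replicate 3 the lowest of all 8 libraries.

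The 3 markers without overlap are named here after their values were seen, 2 of them higher and 1 lower, beside 2.51% and 3.76% of all miRNAs. The lymphocyte miRNA miR-150-5p stood at 675, 3419, 694 and 3137 CPM at week 1 and 4385, 5446, 3429 and 4176 CPM at week 3. All week 3 libraries were higher, though replicate 3 only just exceeded week 1 replicate 2, and the difference was 1.14 ± 0.58 (unadjusted p = 0.0634, edgeR adjusted p = 0.361). The minor arm miR-150-3p differed by 1.45 ± 0.59 (unadjusted p = 0.0225, edgeR adjusted p = 0.28). In contrast the myeloid miRNA miR-223-3p, abundant in neutrophils, stood at 262, 221, 258 and 224 CPM at week 1 and 145, 197, 212 and 138 CPM at week 3. All its week 3 libraries were below those of week 1, with a difference of -0.48 ± 0.21, so the markers without overlap lay in different directions.

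The Sfmbt2 intron cluster is a rodent-specific array of near-identical hairpins in an imprinted gene. The list used for it takes every miR-297, miR-466, miR-467 and miR-669 name, without a check of position. Of the 80 arms listed, 9 passed the filter. All 9 were higher at week 3, with a median of 0.71, 0 of them at an unadjusted p under 0.05 and 0 without overlap. Levels of miR-669c-5p, its most abundant tested arm, were 62.7, 123, 84.4 and 148 CPM at week 1 and 113, 233, 153 and 172 CPM at week 3. The groups overlapped, with a difference of 0.69 ± 0.44. For miR-467c-5p the difference was 1.02 ± 0.49 (unadjusted p = 0.0518, edgeR adjusted p = 0.34) and for miR-467e-5p 0.83 ± 0.41. Week 1 replicates 1 and 3 were the lowest libraries in both of these, as they were in the leukocyte markers; whether the leukocyte markers have a part in this was not tested. Without these 2 libraries 6 of 9 arms were higher, with a median of 0.29. Copies of these hairpins are nearly alike, so counts may be shared between names.

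The miR-17-92 cluster and its paralogues, which promote proliferation in many cell types, leaned in the same direction. Of 22 tested arms 17 were higher, with a median of 0.23, 3 at an unadjusted p under 0.05 and 1 without overlap, beside 3.94% and 2.51% of all miRNAs. The arm without overlap was miR-25-3p, in Mcm7 (chromosome 5, 138165332 to 138165353), at 2171, 2135, 1801 and 2205 CPM at week 1 and 2797, 2787, 2377 and 2532 CPM at week 3. All week 3 values lay above all week 1 values, though the difference was only 0.34 ± 0.19 (unadjusted p = 0.0847, edgeR adjusted p = 0.404). Levels of miR-92a-3p, read from 2 genomic copies, differed by 0.41 ± 0.23, with week 3 replicate 3 just below week 1 replicate 4. The 5 tested miRNAs with the seed AUUGCAC, which are miR-25, miR-32, miR-363, miR-92a and miR-92b, were all higher, with a median of 0.34. Of all 558 miRNAs 269 were higher, and miR-25, miR-363 and miR-92a are already in the list above. Among the 14 seeds with 3 or more tested miRNAs, others also had all members in 1 direction. For example, ACAUUCA had 4 of 4 lower and CAGUGCA 3 of 3 higher.

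**Figure D3:**
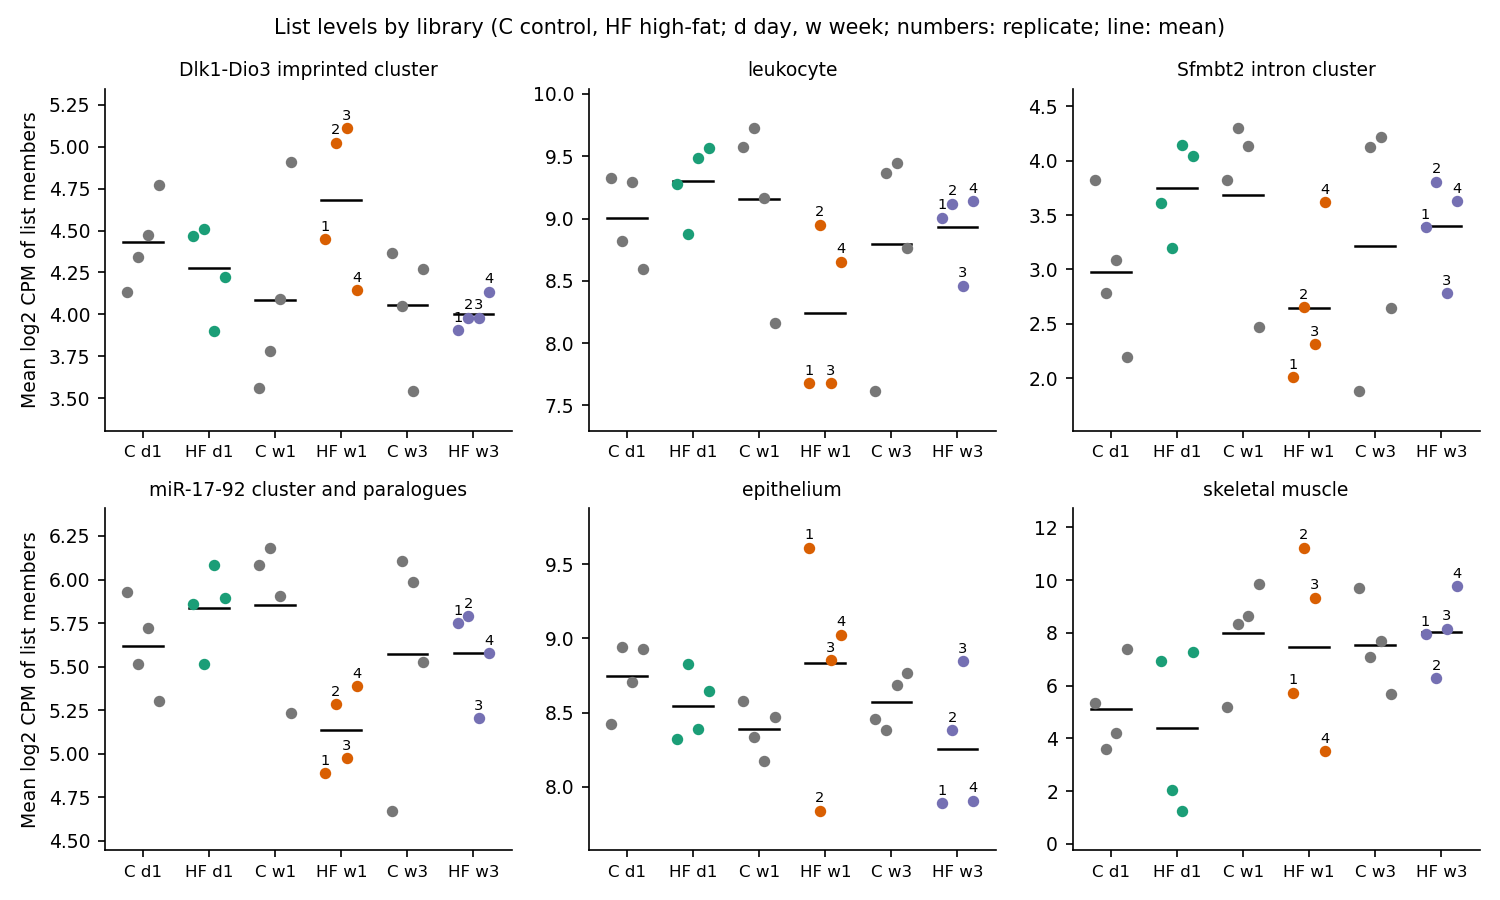
Mean log2 CPM of the tested members of 6 lists in each of the 24 libraries, by group (C control, HF high-fat, d day, w week; the axes differ), with group means as lines and replicate numbers at high-fat weeks 1 and 3. High-fat week 1 splits into replicates 2 and 3 against 1 and 4 in Dlk1-Dio3 and skeletal muscle, and replicates 1 and 3 are the lowest of these 8 libraries in leukocyte and Sfmbt2 members.

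Epithelial markers were lower at week 3 in 14 of 14 cases, with a median of -0.51, 5 of them at an unadjusted p under 0.05 and 0 without overlap, beside 10.4% and 3.76% of all miRNAs. Their summed level was 43784, 10274, 25991 and 25434 CPM at week 1 and 10670.1, 16564, 23447 and 11142 CPM at week 3. Week 1 replicate 1 was the highest library and week 1 replicate 2 the lowest of all 8. The most negative difference was that of miR-203-3p. Levels of miR-203-3p, a keratinocyte differentiation miRNA, were 11418, 1042, 6081 and 2343 CPM at week 1 and 811, 1974, 3936 and 731 CPM at week 3. Replicates 1 and 3 of week 1 stood above every week 3 library while replicates 2 and 4 overlapped them, and the difference was -1.49 ± 0.67 (unadjusted p = 0.0387, edgeR adjusted p = 0.34).

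For the basal epithelial miR-205-5p week 1 replicates 1 and 3 were again the highest, at 6659.6, 661, 4434 and 1573 CPM at week 1 and 679, 1299.7, 2731 and 728 CPM at week 3, with a difference of -1.29 ± 0.57. With week 1 replicates 1 and 3 left out, chosen after seeing the data for their low leukocyte markers, 8 of the 14 epithelial markers were lower and these 2 differences turned to 0.13 and 0.28. The miR-200 family, which maintains the epithelial state, differed less. Levels of miR-200b-3p differed by -0.50 ± 0.26 and those of miR-200a-3p by -0.53 ± 0.27, both with overlap. The 3 miRNAs with the seed AAUACUG, which are already among the epithelial markers, were all lower, with a median of -0.66, beside 289 lower of all 558 miRNAs. Of them miR-200c-3p, named after its values were seen, stood at 2756, 1056, 1307 and 2381 CPM at week 1 and 835, 1261, 1444 and 914 CPM at week 3, with a difference of -0.75 ± 0.26 (unadjusted p = 0.00843, edgeR adjusted p = 0.251). It became the only miRNA called under any setting tried when week 1 replicates 2 and 3 were left out together, at an edgeR adjusted p of 0.0423 and a difference of -1.16. That setting, chosen after seeing the data, removed its lowest week 1 libraries (1056 and 1307 CPM). The call thus follows from which libraries were left out and is no support for a difference.

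Skeletal muscle markers varied more between libraries of a group than between the groups. Of 6 tested markers 5 had a lower fitted level at week 3, with a median of -0.93, and 0 reached an unadjusted p under 0.05. Summed levels were 1200.4, 80999.9, 12772 and 135 CPM at week 1 and 6507, 1267, 10501 and 17381 CPM at week 3. The mean log2 level of the same markers was higher at week 3, 8.05 ± 1.43 against 7.46 ± 3.47 (SD, n = 4), so the median and the mean differ in sign. For miR-1a-3p, the main miRNA of striated muscle, the difference was -1.75 ± 1.63, and it became 1.27 without week 1 replicate 2. The direction thus rests on that library.

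No member of the remaining marker lists passed the adjusted threshold. Fibroblast markers were lower in 6 of 6 cases, with a median of -0.31 and no member at an unadjusted p under 0.05. The most abundant of them, miR-199a-3p, stood at 17077 ± 4918 CPM at week 1 and 13962 ± 2173 CPM at week 3 (SD, n = 4). Of 6 erythrocyte markers 4 were lower and 2 higher, with a median of -0.27, between -0.95 and 0.22. Their leading member, miR-451a, which is cut by AGO2 without DICER, differed by 0.22 ± 0.30. The endothelial miR-126a-3p, encoded in Egfl7 (chromosome 2, 26591402 to 26591423), differed by 0.28 ± 0.15. Its partner arm miR-126a-5p is listed at 0 in all 8 libraries, while an antisense miRNA at the same place has counts. Pericyte and smooth muscle markers had a median of -0.02, and their main member miR-143-3p stood at 125605 ± 16287 CPM at week 1 and 138164 ± 31817 CPM at week 3 (SD, n = 4). The liver miRNA miR-122-5p differed by -0.57 ± 0.50, with overlapping groups.

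Differences among the most abundant and the fat cell miRNAs were small, and none passed the adjusted threshold. The 10 most abundant miRNAs held 66.9% of the scaled counts, and the largest difference among them was the 0.34 of let-7g-5p. The leading adipocyte miRNA miR-148a-3p (chromosome 6, 51269829 to 51269850) stood at 150683, 107548, 147473 and 179487 CPM at week 1 and 209304, 148931, 188991 and 180923 CPM at week 3. The groups overlapped, and the difference was 0.32 ± 0.25 (95% interval -0.19 to 0.82). Of the 16 adipocyte-enriched or adipogenesis-promoting miRNAs 11 were lower and 5 higher, with a median of -0.08, all within -0.34 to 0.32. Within that list miR-30a-5p stood at 25662 ± 2972 CPM at week 1 and 27101 ± 5397 CPM at week 3 (SD, n = 4). The metabolic regulator miR-378a-3p, hosted by the PGC-1β gene, stood at 16141 ± 7060.4 CPM at week 1 and 14993 ± 3455 CPM at week 3 (SD, n = 4).

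Of 11 anti-adipogenic miRNAs 8 were lower, with a median of -0.12. Its members miR-27a-3p and miR-27b-3p, which repress the adipogenic factor PPARγ, stood at 9852 ± 3068 CPM at week 1 and 11329 ± 2953 CPM at week 3 (SD, n = 4) and at 11021 ± 1675 CPM at week 1 and 10162 ± 1056 CPM at week 3 (SD, n = 4). Of 12 brown and beige adipocyte miRNAs 9 were lower, with a median of -0.29, and the only member at an unadjusted p under 0.05 was the epithelial miR-203-3p. The difference was -0.39 ± 0.19 for miR-196a-5p, which favours browning, and 0.28 ± 0.31 for miR-455-5p.

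Of 12 miRNAs tied to inflammation and obesity 8 were higher, with a median of 0.14, and the only one at an unadjusted p under 0.05 was miR-223-3p, which was lower. The most abundant of them, miR-21a-5p, stood at 57629.5 ± 17624 CPM at week 1 and 60547 ± 4606 CPM at week 3 (SD, n = 4). The let-7 family had 6 of 9 members higher, with a median of 0.02, between -0.23 and 0.34. The lists of miRNAs hosted by lipid metabolism genes, of the X-linked cluster around miR-322, of the Hox clusters and of the miR-29 family had medians of 0.16, -0.05, 0.06 and -0.02. The X-linked list ran from -1.27 to 0.37, with 1 of 11 members lower at an unadjusted p under 0.05 (10.4% of all miRNAs). In the miR-29 family 1 of 7 was lower without overlap (3.76% of all miRNAs). The neuron list had 3 of 6 higher and a median of 0.18, between -1.07 and 1.08. Of its members 1 was lower at an unadjusted p under 0.05.

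The miRNAs made without Drosha or without DICER were also looked at as a list. It mixes both kinds, so its median does not bear on DICER by itself. Of the 9 tested 4 were higher and 5 lower, with a median of -0.07, beside -0.02 for all miRNAs. Of them 1 was higher at an unadjusted p under 0.05 and 1 lay higher without overlap, beside 3.94% and 2.51% of all miRNAs. None was lower by either measure. The DICER-dependent but Drosha-independent miR-320-3p differed by -0.22 ± 0.16.

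**Figure D4:**
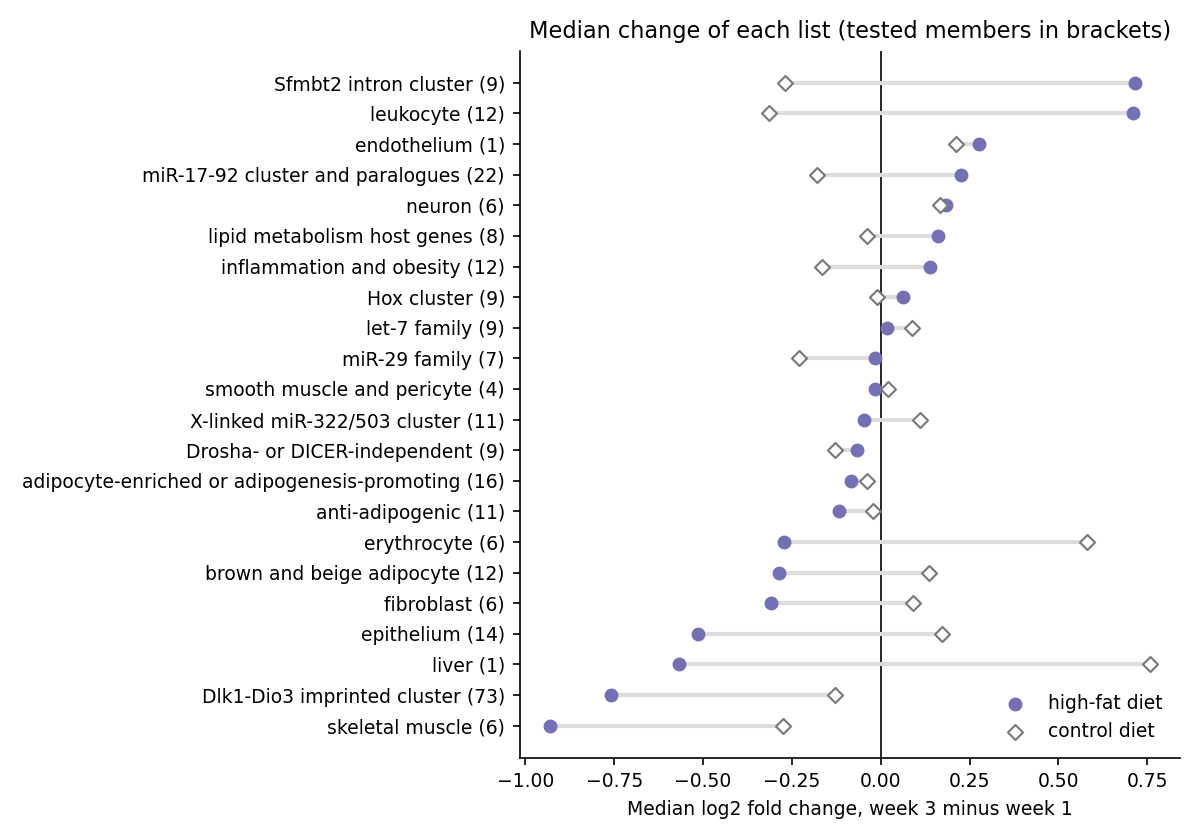
Median log2 fold change, week 3 minus week 1, of the tested members of each of the 22 lists on the high-fat diet (filled) and on the control diet (open diamonds), with the number of tested members in brackets. Sfmbt2, leukocyte and miR-17-92 members have medians above 0 on the high-fat diet and below 0 on the control diet, and Dlk1-Dio3 members are lower on the high-fat diet; the skeletal muscle point changes sign without week 1 replicate 2.

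The same time step on the control diet also gave 0 called miRNAs (0%), with a lowest edgeR adjusted p of 0.993 and 13 miRNAs at an unadjusted p under 0.05. In that step 49 of the 73 Dlk1-Dio3 members were lower and 24 higher, with a median of -0.13 and 0 at an unadjusted p under 0.05. Leukocyte markers were lower in 11 of 12 cases there, with a median of -0.32. Epithelial markers were higher in 11 of 14, with a median of 0.17.

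Whether the step differed between the diets was tested as an interaction in the same fit, and 0 of 558 miRNAs were called (0%), with a lowest edgeR adjusted p of 0.546. At an unadjusted p under 0.05, 17 interactions were negative (3.05%) and 16 positive (2.87%). With library totals alone they were 26 and 6, by limma-voom 49 and 32, and with the muscle marker mean as a covariate 27 and 21. Leaving out 1 library moved them in most cases. On the control side they were 55 and 38 without week 1 replicate 4, 37 and 26 without week 3 replicate 3, 27 and 21 without week 3 replicate 2, 15 and 8 without week 1 replicate 1, and 15 and 7 without week 1 replicate 2. On the high-fat side they were 25 and 7, 31 and 21, 17 and 5, and 37 and 26 without week 1 replicates 1, 2, 3 and 4. Without week 3 replicates 1, 3 and 4 they were 11 and 10, 38 and 37, and 10 and 10. The smallest p in the negative direction included miR-205-5p, with a difference between the steps of -2.19 ± 0.80, where the control step was 0.90 ± 0.56. Another was miR-3102-3p.2-3p, a minor product of the miR-3102 hairpin. It stood at 3.77, 1.71, 4.63 and 4.66 CPM at week 1 and 1.7, 1.59, 1.3 and 1.66 CPM at week 3, with week 3 replicate 1 only just below week 1 replicate 2, and its step differed between the diets by -1.32 ± 0.48. In the positive direction miR-877-3p, from a short intron of Abcf1, gave 1.34 ± 0.52, and miR-222-5p gave 1.00 ± 0.38. Of the Dlk1-Dio3 members 69 of 73 had a negative interaction, with a median of -0.69, 9 at an unadjusted p under 0.05. That number was 42 without control week 1 replicate 4, 24 without control week 3 replicate 3, 21 and 15 without high-fat week 1 replicates 4 and 1, and 5 to 11 without each of the others. A difference between the diets was thus not shown for any single miRNA.

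Arm ratios compare the 5p and 3p arms of a hairpin, which come from 1 precursor, and low counts of the minor arm limit them. Of 167 hairpins with both arms tested, 0 (0%) passed the test by limma (lowest adjusted p 0.463), and 12 had an unadjusted p under 0.05. With a pseudocount of 5 the count stayed at 0, with a lowest adjusted p of 0.105. The ratio differed by at most 0.5 log2 units in 130 hairpins. The miR-99a ratio of 5p to 3p was 12.38 ± 0.23 at week 1 and 13.11 ± 0.27 at week 3 on the log2 scale (SD, n = 4), a difference of 0.73 ± 0.25. For miR-222, whose minor arm had a mean of 25.2 counts over the 8 libraries, the difference was 0.97 ± 0.34. Lower ratios at an unadjusted p under 0.05 included miR-708 (-0.65 ± 0.28) and miR-151 (-0.91 ± 0.40). Their minor arms had means of 2833 and 3216 counts. The smallest p of all was that of miR-363, whose ratio was also lower, with a minor arm mean of 5.25 counts. In the Dlk1-Dio3 cluster 13 of 26 hairpins had a higher ratio and 13 a lower one, and 1 had an unadjusted p under 0.05.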

How the data were processed

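The deposited table holds raw counts of reads for each mature miRNA name, 1 column per library; the authors used FastQC, Trim Galore, Bowtie2, featureCounts and the mouse build mm10, per the submitters' processing notes. Per the labels' protocols, TRIzol-purified total RNA went into NEBNext small RNA libraries. The treatment of reads with several matches, of strand and of overlapping miRNAs is not stated in the labels; arms such as miR-126a-5p (0 counts) and other multi-copy or antisense miRNAs are uncertain.

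Groups and replicate numbers came from sample titles. The labels do not say that replicates are separate mice, and p-values then reflect only how these libraries scatter, part of which may be technical. No pair of libraries matched within sampling noise (lowest chi-square per degree of freedom 189). Counts carry no molecular identifiers. The intervals of the differences come from the edgeR fit, so like the p-values they reflect how these libraries scatter.

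All 24 libraries were fitted in R 4.3.3 with edgeR 4.0.16 (quasi-likelihood, 6 group means, TMM, filterByExpr at 10 counts and 15 in total, Benjamini-Hochberg adjusted p under 0.05). The filter kept 558 of 1907 names; those left out held 0.0179% of counts, and 440 names had 0 counts in all libraries. The biological coefficient of variation was 0.359. Arm ratios, log2 of 5p over 3p counts with a pseudocount of 0.5, were tested with limma 3.58.1 over 167 hairpins. The scripts were tested on simulated data. A miRNA with fewer than 10 counts on average in both groups got no fold change. Sequences and positions were matched by name to RefSeq for 489 of the 558 miRNAs, and annotation came from the same build.

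The comparison and the 22 lists (9 of cell type markers, 13 others) were chosen with earlier results of these data known. Named miRNAs were, per direction, 6 by smallest p, the 10 most abundant, 3 abundant members of each list and up to 3 per direction for the other contrasts, of which the text gives a selection; others are marked in the text. Alternatives covered other size factors, filters, DESeq2 1.42.0, limma-voom, a replicate block, a muscle covariate and each library left out.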

Additional observations from a re-analysis of the deposited data

Results flagged for a closer look

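In groups of 4 libraries a library was looked at again when its gap to the nearest of the others was above Dixon's 95% critical value, as a share of the group's whole range on the log2 scale. Over 134 such groups (the 2 high-fat groups, for the miRNAs with a fold change in the text, the lists and the library totals) chance alone gives about 6.7, and 3 were found. At week 1, replicate 3 had miR-25-3p at 1801 CPM against 2135 to 2205 CPM in the others (0.839 of the range). At week 3, replicate 1 had miR-598-3p at 35.3 CPM against 28.4 to 29.2 CPM (0.875 of the range). At week 3, replicate 3 had the leukocyte miRNA miR-142a-5p at 3536 CPM against 8768 to 10027 CPM (0.871 of the range). This last library was also the lowest of week 3 in the summed leukocyte markers and the deepest one.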

How the results depend on the processing

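The count of called miRNAs was 0 under every alternative run for the high-fat step, the control step and the interaction, with 1 exception. It was miR-200c-3p in the high-fat step without week 1 replicates 2 and 3, a setting added after seeing the data. Those libraries had its lowest week 1 levels. Numbers of members moved where fewer were tested: at a mean CPM of at least 10, 43 Dlk1-Dio3 members were lower and 4 Sfmbt2 members higher. The Dlk1-Dio3 median was -0.33 without week 1 replicates 2 and 3. Skeletal muscle results depended on the setting. Lower members numbered 0 by limma-voom, 1 with the muscle covariate, 0 without week 1 replicates 2 and 3, and 2 to 6 with 1 library left out. The median was 1.15, 0.24 and 3.84 under those 3 settings and -1.88 to 0.47 with 1 library left out. The log2 difference of miR-1a-3p was 1.76, 0.61 and 5.0, and -2.25 to 1.27. Without week 1 replicates 1 and 3, 8 epithelial markers were lower, and miR-203-3p and miR-205-5p turned to 0.13 and 0.28. Without week 1 replicates 2 and 3, miR-381-3p turned to 0.24. The cause of these shifts was not tested. Of 874 values of 44 named miRNAs over 20 alternatives, 866 kept their direction and side of the threshold. Same-numbered high-fat libraries did not deviate together (correlations -0.18, -0.37, 0.16 and -0.30; 1 of 8 correlated best with its own number), so numbers were not taken as pairs; with a replicate block 0 miRNAs were called and 79 had an unadjusted p under 0.05, against 80 without. With 4 libraries a group, 51.1% of miRNAs had an interval within 2-fold, so changes of that size may be missed in the others.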
